A study of Mus musculus with 2 samples.

Results

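Mir144 and Mir451a are neighbouring mouse miRNA genes of the red cell lineage, and they make up 2 of the 1973 miRNA genes counted in this study. They were chosen by their measured read counts on either strand, because in earlier results of these data they differed in opposite directions between the replicates. The differences between the replicates given for them below are therefore descriptions and carry no test. The study measured small RNA in mouse embryonic facial prominence, the tissue that builds the face and jaws, on embryonic day 15.5. All tissue came from healthy embryos of strain B6NCrl with the sexes mixed and no treatment. Replicate 2 was a pool of 62 embryos and replicate 1 a pool of 78 embryos, numbered by the labels as biological replicates, so there was 1 group of 2 samples and the values hold for pools and not for single animals. Replicate 2 had 6408008 reads assigned to miRNA genes and replicate 1 had 2978463.

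The Mir144 and Mir451a hairpins are cut from 1 primary transcript, whose gene is switched on by the factor GATA1 in red cell precursors. The miR-144 hairpin is cut by Drosha and then by Dicer, as most miRNAs are. The miR-451a hairpin is too short for Dicer after Drosha has cut it. It is sliced by the Argonaute protein AGO2, and an exonuclease then trims the product. In mice, loss of the pair lowers red cell output and leaves red cells sensitive to oxidative stress. In a face that is being supplied by vessels, red cells are the known source of both miRNAs.

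Both genes lie on the plus strand of chromosome 11 in the mm10 build, outside any other gene on that strand. Mir144 (ENSMUSG00000065401) occupies chr11:78073005-78073070, and Mir451a (ENSMUSG00000070065) occupies chr11:78073170-78073241, so 99 bases separate the hairpins. Mir451b is annotated on exactly the bases of Mir451a but on the minus strand, and has no count of its own here. The coding gene Eral1, on the minus strand, lies 134 bases beyond Mir451a. The hairpins are shown because they carry the difference in processing route, with the mature miRNAs in capitals (RefSeq, GRCm38.p6).
Mir144 hairpin: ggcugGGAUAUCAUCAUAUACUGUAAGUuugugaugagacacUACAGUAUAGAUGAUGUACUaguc
Mir451a hairpin: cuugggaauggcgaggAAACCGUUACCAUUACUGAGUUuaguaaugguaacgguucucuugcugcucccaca
The mature miRNAs follow with the seed, bases 2 to 8, in capitals.
miR-144-5p: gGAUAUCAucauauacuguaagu
miR-144-3p: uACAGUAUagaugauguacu
miR-451a: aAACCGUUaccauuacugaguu

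**Figure D1:**
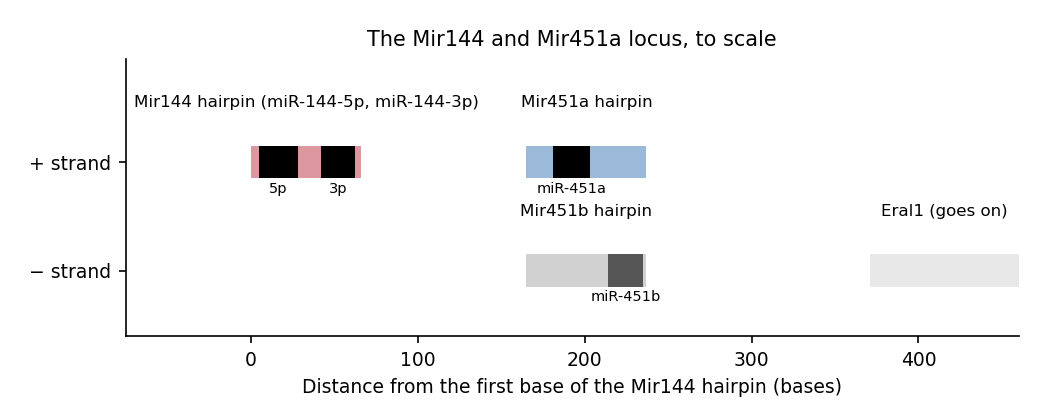
Map of the locus to scale, with distance in bases from the first base of the Mir144 hairpin on the x axis and the strands as rows. Pale bars are annotated hairpins (for Eral1, the near end of the gene) and dark blocks are mature miRNAs. The Mir144 and Mir451a hairpins sit 99 bases apart on the plus strand, and Mir451b covers the bases of Mir451a on the minus strand.

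The hairpins differed in where the mature miRNA sits. In a predicted fold, Mir144 had 27 base pairs, a terminal loop at bases 31 to 36 and a free energy of −28.6 kcal/mol. Its mature miRNAs, at bases 6 to 28 and 43 to 62, lay on either side of that loop and held 0 of its bases. The fold of Mir451a had 30 base pairs, a loop of 4 bases at positions 35 to 38 and −43.3 kcal/mol. Its mature miRNA ran from base 17 to base 38 and so included all 4 loop bases, as known for the AGO2 route. The seeds of the pair were unlike each other, ACAGUAU for miR-144-3p and AACCGUU for miR-451a. No other mature miRNA of the RefSeq table shared bases 2 to 7 with miR-451a or miR-144-5p. The 1 that shared them with miR-144-3p was miR-101a-3p, which has ACAGUAC at bases 2 to 8.
miR-101a-3p: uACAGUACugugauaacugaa

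The deposited counts are per hairpin, so miR-144-5p and miR-144-3p could not be told apart. All reads of both genes lay on the strand of the gene. The opposite strand had 0 of 299 Mir144 reads in replicate 2 and 0 of 254 in replicate 1, which allows a share of up to 1.00% and 1.18%. For Mir451a it had 0 of 1066 reads in replicate 2, a share of up to 0.281%, and 0 of 333 in replicate 1, a share of up to 0.901%. No read counted for Mir451a was thus assigned to the strand of Mir451b. Reads that mapped to several places were given to no gene. The longest run that miR-451a shares with the opposite strand of its own hairpin is 16 of its 22 bases, and the longest it shares with any other hairpin is 10. For miR-144-3p these runs are 9 and 10 of 20 bases. Reads set aside as multiply mapped made up 29.7% of replicate 2 and 30.6% of replicate 1, and whether any came from this locus was not tested.

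Levels are given in CPM, the usual read count scaled to library size, here after TMM adjustment, with 95% exact intervals that cover counting error only. Mir451a stood at 167 CPM in replicate 2 (interval 157 to 178) and at 111 CPM in replicate 1 (99.6 to 124). Mir144 stood at 46.9 CPM in replicate 2 (41.7 to 52.5) and at 84.9 CPM in replicate 1 (74.8 to 96.0). Mir451a was thus higher in replicate 2 and Mir144 higher in replicate 1, the contrast for which the pair was chosen. Over both replicates Mir451a averaged 139 ± 39.5 CPM and Mir144 65.9 ± 26.9 CPM (SD, n = 2), with coefficients of variation of 28.4% and 40.8%. Per base of annotated hairpin, the level was 1.93 ± 0.549 CPM for Mir451a and 0.998 ± 0.407 CPM for Mir144 (SD, n = 2). Annotated hairpin length does not tell how many of its bases were read, so values per hairpin base are descriptions only. For the level of 1 gene taken alone in this bulk tissue, fewer red cells and less of the RNA per cell cannot be told apart.

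**Figure D2:**
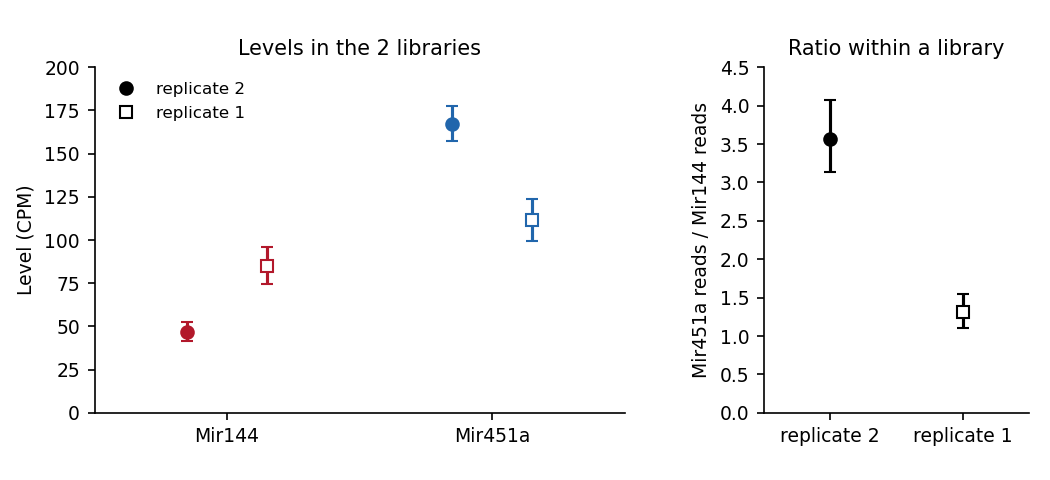
Left, CPM (y axis) of Mir144 and Mir451a, with filled circles for replicate 2 and open squares for replicate 1. Right, reads of Mir451a divided by reads of Mir144 within each library. Bars are 95% exact binomial intervals for counting error. Mir144 is lower and Mir451a higher in replicate 2, and the ratio is 3.57 in replicate 2 against 1.31 in replicate 1.

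The ratio of the genes within a library needs no scaling between libraries. Mir451a had 3.57 reads for each Mir144 read in replicate 2 (interval 3.13 to 4.07, 1066 and 299 reads). The same ratio was 1.31 in replicate 1 (1.11 to 1.55, 333 and 254 reads). Mir451a therefore had more reads than Mir144 in both pools. Whether it also had more molecules was not tested. Its share of the reads of the pair was 78.1% in replicate 2 (75.8 to 80.3) and 56.7% in replicate 1 (52.6 to 60.8). Per hairpin base the ratio was 3.27 in replicate 2 and 1.20 in replicate 1. The ratio in replicate 2 was 2.72 times that in replicate 1 (95% exact conditional interval 2.20 to 3.36). Over the replicates the ratio averaged 2.44 ± 1.59 (SD, n = 2), an SD larger than the distance of its mean from 1. The sum of the pair differed less than either gene, at 214 CPM in replicate 2 and 196 CPM in replicate 1. Its log2 ratio was 0.13 with an interval of −0.01 to 0.27, and it averaged 205 ± 12.7 CPM (SD, n = 2). The genes were chosen for opposite differences, which offset each other in a sum. The log2 ratio of the sum had to lie between theirs, so it is a description only.

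As log2 ratios of CPM in replicate 2 over replicate 1, the values were −0.86 for Mir144 (interval −1.10 to −0.61) and 0.59 for Mir451a (0.41 to 0.77). Mir144 was 1.81-fold lower and Mir451a 1.5-fold higher in replicate 2. Of the 333 genes with at least 10 reads in each library, an exact binomial test with Benjamini-Hochberg adjustment called 53.5%, of which 25.8% of the 333 were higher in replicate 2 and 27.6% higher in replicate 1. The choice of the pair used this contrast, so nothing is read from their place among these calls. The call itself compares 2 libraries and covers counting error only, while the edgeR common dispersion over these genes corresponded to a variation of 17.4% between the libraries. Over all 333 genes the median log2 ratio was −0.01 and its SD 0.45. Counted from the end toward replicate 1, Mir144 held place 5 of 333. Counted from the end toward replicate 2, Mir451a held place 26.

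**Figure D3:**
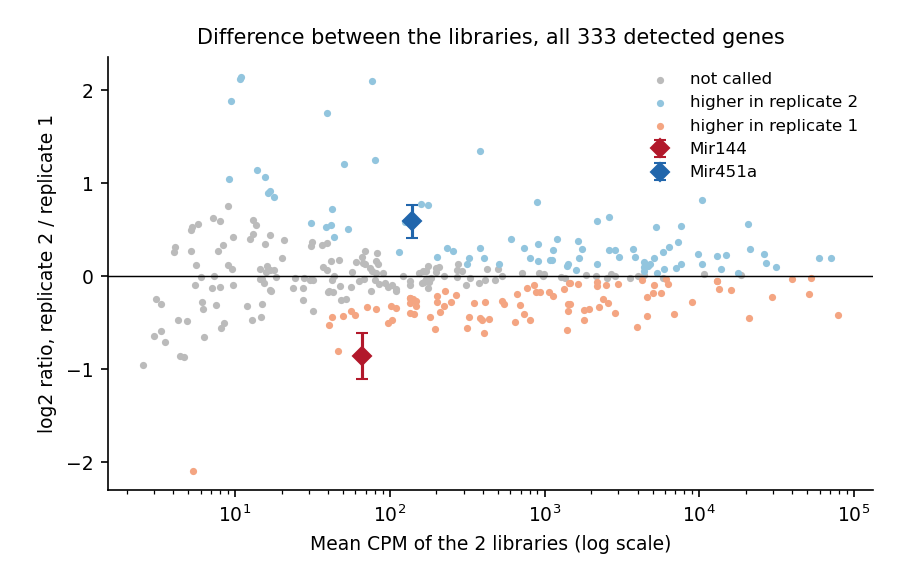
Each point is 1 of the 333 genes with at least 10 reads in each library, with mean CPM on a log x axis and the log2 ratio of replicate 2 over replicate 1 on the y axis. Colours give the call of the exact binomial test, and diamonds mark the pair with 95% intervals. Mir144, at −0.86, lies below the other genes of about its level, and Mir451a, at 0.59, lies above most genes of its level.

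In the order of mean level, Mir144 held place 220 and Mir451a place 183 of the 333 genes. Per hairpin base these were places 209 and 173. The genes next to Mir144 in mean CPM were Mir701 (68.1 ± 0.990 CPM), Mir505 (67.5 ± 4.76), Mir1981 (65.7 ± 6.44) and Mir138-1 (63.0 ± 1.67; SD, n = 2). Their means differed from that of Mir144 by less than its SD, and their own replicates were closer together. In replicate 2 Mir144 was below these 4 genes, which had 61.8 to 70.9 CPM, and in replicate 1 it was above them, at 61.1 to 68.8 CPM.

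The genes next to Mir451a were Mir29a (124 CPM in replicate 2 and 164 CPM in replicate 1), Mir32 (141 ± 17.3 CPM), Mir496a (136 ± 15.4) and Gm24111 (136 ± 3.33; SD, n = 2), all within its SD. Nearly all reads of Gm24111 lay on the opposite strand. Mir451a was above these 4 genes in replicate 2, where they had 124 to 133 CPM, and below them in replicate 1, where they had 138 to 164 CPM. Per hairpin base the neighbours in level stood at 0.625 to 0.801 CPM for Mir144 and at 1.40 to 2.02 CPM for Mir451a.

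Genes whose difference between the libraries was most like that of each member were sought where the mean count reached 50 reads. The measure of likeness was the distance in log2 ratio over the 2 libraries. The nearest to Mir144 were Mir499, a miRNA of heart and slow muscle (−0.81), and Mir376c (−0.62) and Mir154 (−0.58) of the imprinted Dlk1-Dio3 locus. They differed from Mir144 by 0.05, 0.24 and 0.28. The nearest to Mir451a were Mir7j (0.59), the endocrine Mir375 (0.59) and Mir7688 (0.60, 100 and 31 reads in replicates 2 and 1), the farthest of which differed from it by 0.01.

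Adjacent miRNA genes on 1 strand were taken as the background for this pair. Whether the genes of each such pair share a transcript was not tested. Within 10 kb there were 107 pairs of neighbouring detected genes, and the log2 ratios of the genes in a pair differed by a median of 0.25, with 90% of the pairs below 0.57. For Mir144 and Mir451a the difference was 1.44, place 1 of 107. The pair was chosen for this difference, so its place is a description. Among the 70 pairs in which both genes had at least as many reads as Mir144, the median difference was 0.23 and the place was again 1. Places 2 and 3 went to neighbours of the Mir302 cluster and rested on Mir302c, which had 20 reads in replicate 2 and 17 in replicate 1. Mir302c and Mir302a differed by 1.27 and Mir302b and Mir302c by 1.22. Place 4 was held by Mir669e and Mir669l, which differed by 0.87, and place 5 by Mir500 and Mir501, which differed by 0.75. Reads that mapped to several places are missing from the counts of all these pairs.

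**Figure D4:**
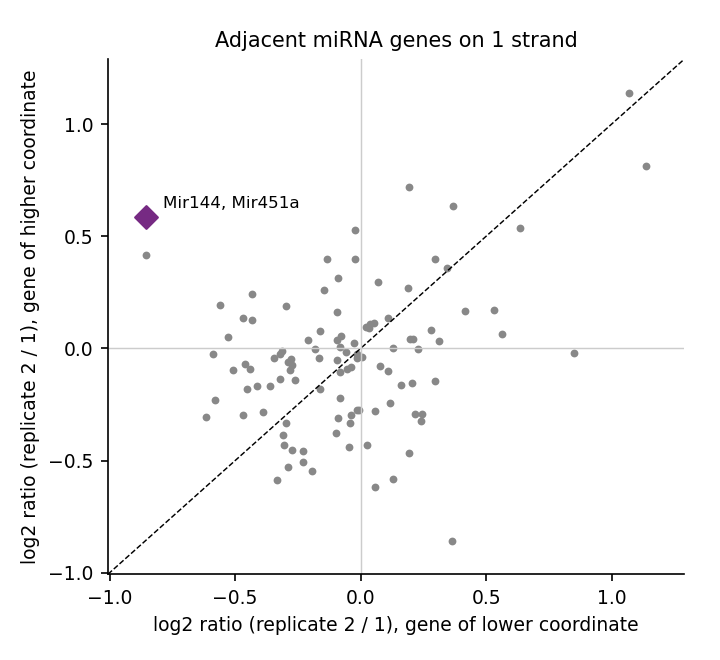
Each point is 1 of 107 pairs of adjacent miRNA genes on the same strand within 10 kb. The x axis gives the log2 ratio of replicate 2 over replicate 1 for the gene of lower coordinate and the y axis that of its neighbour, and the dashed line marks equal ratios. Mir144 and Mir451a (diamond) lie farthest from that line, with a difference of 1.44 against a median of 0.25.

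Opposite calls within a pair were not limited to this locus. In 13 of the 107 pairs the genes were called in opposite directions, in 28 they were called in the same direction, and in 66 at most 1 gene was called. The 13 included Mir144 and Mir451a itself, whose place there the choice fixed. Another was Mir15b and Mir16-2, 66 bases apart on chromosome 3, both tied to red cell formation. Mir15b was lower in replicate 2 (log2 ratio −0.47, 4331 reads in replicate 2 and 2816 in replicate 1, exact binomial adjusted p = 1.91e-39). Mir16-2 was higher in replicate 2 (0.13, 2100 and 898 reads, exact binomial adjusted p = 0.037). The difference between Mir15b and Mir16-2 was 0.60, place 10 of the 107. Mir16-2 and Mir16-1 give the same mature miR-16, and reads that mapped to several places were given to no gene. The Mir16-2 count therefore leaves out reads that fit both genes, so its value is uncertain. The p-values cover counting error only.

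The other erythroid gene with counts was Mir486, whose main product is abundant in red cells and also needs slicing by AGO2. Its counts did not follow either member. Mir486 had 167 reads (26.2 CPM) in replicate 2 and 86 reads (28.7 CPM) in replicate 1. Its log2 ratio was −0.13 with an interval of −0.52 to 0.26, and it was not called (exact binomial adjusted p = 0.608). Part of its reads, 24 in replicate 2 and 9 in replicate 1, lay on the opposite strand, where Mir3107 is annotated. Any read that fits both Mir486 and Mir3107 would be given to no gene. The Mir486 count may therefore leave out reads of its main product, so its value is uncertain. How many such reads there were was not tested. The erythroid list held 5 genes, of which Mir451b and Mir3107 (Mir486b) have no counts here. The sum of the other 3 was 240 CPM in replicate 2 and 225 CPM in replicate 1, or 233 ± 10.9 CPM (SD, n = 2). Mir451a made up the largest part of that sum in each library, with the Mir486 count uncertain as said above.

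Of 16 further miRNAs tied to red cell formation, 14 were counted and all passed the read minimum. Higher in replicate 2 were 4 of them and higher in replicate 1 another 4, while 6 were not called, shares near those of all genes. Their median log2 ratio was −0.02, against −0.01 over all genes. As above, the calls and p-values cover counting error only, beside a variation of 17.4% between the libraries. Higher in replicate 2 were Mir16-1, Mir16-2, Mir22 and Mir223, the last a miRNA of myeloid cells. The counts of Mir16-1 and Mir16-2 leave out reads that fit both. Mir22 had 4599 CPM in replicate 2 and 4132 CPM in replicate 1 (log2 ratio 0.15, exact binomial adjusted p = 4.91e-23). Higher in replicate 1 were Mir15b, Mir210, Mir221 and Mir320. Mir210, which is induced by low oxygen, had 629.6 CPM in replicate 2 and 833 CPM in replicate 1 (−0.40, exact binomial adjusted p = 1.26e-26). Mir221, which represses the growth factor receptor gene Kit in red cell precursors, had 199 CPM in replicate 2 and 249 CPM in replicate 1 (−0.32, exact binomial adjusted p = 4.41e-06). Its neighbour Mir222 was not called (−0.14, interval −0.33 to 0.06).

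**Figure D5:**
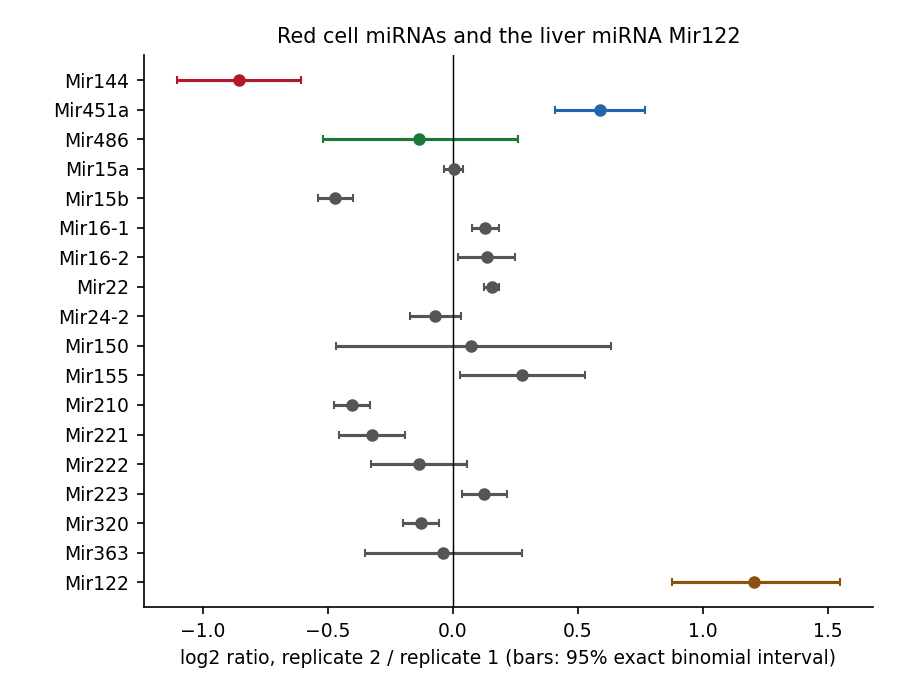
Log2 ratio of replicate 2 over replicate 1 (x axis) for Mir144, Mir451a, Mir486, the 14 counted genes of the red cell formation list and the liver gene Mir122. Bars are 95% exact binomial intervals for counting error. Mir144 at −0.86 and Mir451a at 0.59 lie farther from 0 than Mir486 and the 14 listed genes, and Mir122 lies at 1.20.

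Mir101a, whose miR-101a-3p shares bases 2 to 7 with miR-144-3p, had 124 CPM in replicate 2 and 146 CPM in replicate 1. It was lower in replicate 2 (log2 ratio −0.24, exact binomial adjusted p = 0.0116). Per hairpin base its level of 1.63 CPM was above the 0.998 CPM of Mir144.

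Among markers of other cells in the pools, the liver gene Mir122, made in hepatocytes and alone in its list, was higher in replicate 2. It had 70.1 CPM in replicate 2 and 30.4 CPM in replicate 1 (log2 ratio 1.20, 447 and 91 reads, exact binomial adjusted p = 1.72e-14). Outside the list, Mir194-2 and Mir192, also found in liver, were not called (log2 ratios −0.17 and −0.04). The leukocyte, vessel and epithelial lists showed no common direction. Of the 5 counted leukocyte genes 2 were called higher in replicate 2 and 1 in replicate 1, near the 53.5% called among all genes, and their median log2 ratio was 0.13 against −0.01 for all genes. Their sum was 4099.8 CPM in replicate 2 and 3624 CPM in replicate 1, and this difference came from Mir342 (2857 CPM in replicate 2 and 2353 CPM in replicate 1). Without Mir342, left out after its values were seen, the other 4 had a sum of 1243 CPM in replicate 2, against 1271 CPM in replicate 1. These 4 include Mir142b, the gene called higher in replicate 1. All its reads (3952 in replicate 2 and 2113 in replicate 1) lay on the opposite strand. The 3 counted vessel genes, all called, were divided, with Mir126a and Mir143 higher in replicate 2 and Mir145a higher in replicate 1 (median log2 ratio 0.04). The 7 epithelial genes were all called as well, 4 higher in replicate 2 and 3 in replicate 1. Vessel and epithelial genes all had at least 100 reads in each library, and 66.8% of genes with that many were called. The sum of the epithelial genes was lower in replicate 2, at 128693 CPM against 151799 CPM in replicate 1. Their median log2 ratio was 0.11. None of the counted markers in these lists was at 0. Mir122 thus moved with Mir451a and against Mir144, but as 1 gene it gives no measure of liver cells. The part of liver cells, of depth or of library preparation in the difference between Mir144 and Mir451a was not tested.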

How the data were processed

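MicroRNA sequencing gave 1 library per pool. The deposited values are raw read counts per miRNA gene from the authors' processing, on mm10 with GENCODE M4 per the deposited file list. They hold reads on either strand, used here, and on each strand. For the aligner and the counter: not given in the sources used here. Lines that name no gene (54.5% of reads in replicate 2 and 49.0% in replicate 1) stayed out of library sizes. Symbols and positions came from GENCODE M21 on the same build (1894 of 1973 genes matched), and miRNA sequences from RefSeq. Hairpins were folded with RNAfold 2.7.2. CPM used TMM factors from edgeR 4.0.16. A two-sided exact binomial test, adjusted over the 333 genes with at least 10 reads in each library (threshold 0.05), compared replicate 2 with replicate 1. With 1 library on each side no residual degrees of freedom remain, and an exact permutation cannot give a p below 0.5. Reads without molecular identifiers are not independent molecules, so intervals cover counting error only. Members and lists were chosen with earlier results of these data known. Named genes were the members, the lists, genes nearest in level, ratio or position, seed sharers and the 5 pairs of neighbours with the largest differences. Mir192 and Mir194-2 were added beside Mir122 after their values were seen. Alternatives were other scalings, strand columns, read minimums and neighbour distances (DESeq2 1.42.0 for size factors).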

Additional observations from a re-analysis of the deposited data

How the results depend on the processing

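Apart from leaving out a library, 39 alternatives were run. Of these, 36 left the result within its spread between replicates, its interval or 1.5 times its count, and 0 reversed a direction. The 36 include 7 sums of the strand columns, which equal the main column by construction. They also include the read ratio from the strand of the gene, fixed at 2.44 because no member read lay on the opposite strand. With all reads of a library as denominator, the mean level was 32.4 CPM for Mir144 and 66.4 for Mir451a, because that denominator also holds unmapped and multiply mapped reads. In all 12 alternatives of the log2 ratios, Mir144 stayed below 0 and Mir451a above 0. The pair was chosen for these opposite directions, so this is a description and no test. Leaving out the most abundant gene returned the main values, −0.86 for Mir144 and 0.59 for Mir451a. With no read minimum, Mir144 and Mir451a held place 9 of 134 pairs of neighbours. The 8 pairs above them each had a gene with at most 10.5 reads on average. The share of genes called was 52.6% to 53.5% under the other scalings and strand columns, but 26.3% (186 of 708 genes) with no read minimum and 66.8% (165 of 247) with at least 100 reads in each library. No paired analysis was possible because both libraries belong to 1 group. Leaving out either library, the level ran from 46.9 to 84.9 CPM for Mir144 and from 111 to 167 CPM for Mir451a, and their ratio from 1.31 to 3.57. With 2 libraries this range is the spread itself and says nothing of stability.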
